A study of Mus musculus with 4 samples.

Results

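Interferon-stimulated genes are the genes that cells switch on when they sense interferons, and they were examined here as 39 listed mouse genes in macrophages of visceral fat. The 39 were chosen by symbol, and 38 of them had a row among the 32285 genes measured. Mx1 was not analysed here. By a grouping that follows which interferon mainly drives them, 27 of the measured genes are called type I members, 7 are called interferon-gamma members (Cxcl9, Gbp2, Gbp3, Gbp5, Gbp7, Iigp1 and Irf1), and 4 that both interferons induce strongly are called shared members (Igtp, Irgm1, Ifi47 and Cxcl10).

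Type I interferons act through the receptor IFNAR on nearly every cell and lead to a complex with STAT2 and IRF9 that binds the interferon-stimulated response element. Interferon gamma, made mainly by T cells and natural killer cells, acts through IFNGR and leads to binding at the gamma-activated site. In fat of obese mice both pathways have been linked to macrophage activation. BLIMP1, the repressor deleted in the study, was first found as a factor that binds the promoter of the interferon-beta gene.

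The cells were sorted from perigonadal white fat of mice as live CD45+ CD11b+ CD64+ cells negative for lineage markers, and their RNA was counted as unique molecules (UMIs) with 10x Genomics 3′ single-cell libraries. There were 4 groups with 1 library each: control mice on a high-fat diet (WT HFD), BLIMP1 conditional knockout mice on a high-fat diet (CKO HFD), control mice on a normal diet (WT normal diet) and knockout mice on a normal diet (CKO normal diet). The sources used here do not give the driver of the knockout, the deleted exons, the strain, sex or age of the mice, the length of the diet or the number of mice per library. With 1 library a group no difference between groups could be tested, and a group cannot be told apart from its library.

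Values below are in that order of libraries unless named. After filtering, 4650, 8731, 3705 and 4302 cells were kept with 74442649, 42551849, 21788293 and 24513539 UMIs, and the median cell had 14492.5, 3923, 4092 and 3939 UMIs. The WT HFD library stood apart, with the deepest cells and with 400 cells over the mitochondrial limit against 7, 23 and 23, so shares of cells are given after each cell was thinned to 2000 UMIs. CKO HFD stood apart as well, with the lowest median of genes per cell (3541.5, 1475, 1833 and 1808.5 genes) and with Gm42418, a locus that overlaps ribosomal RNA repeats, at 44587, 6907, 29967 and 35304 CPM (UMIs scaled to a library total of 1000000). With totals that leave out mitochondrial, ribosomal protein and Gm42418 UMIs, the same members passed 1.5-fold between CKO and WT under each diet as without that step, and the part of library quality in the levels of CKO HFD was otherwise not tested. Pairs of libraries shared 2 to 12 cell barcodes. The 9 macrophage markers, Fcgr1 (CD64) among them, were detected in all 4 libraries, while the T cell gene Cd3e was at 0.0269 to 0.918 CPM. Prdm1, the gene of BLIMP1, stood at 21.9, 22.9, 22.9 and 28.4 CPM, and since the reads come from the 3′ end and the deleted exons are unknown here, these levels do not check the genotypes. Ratios between libraries also moved with gene length. From the shortest to the longest of 5 length classes the median log2 ratio of CKO HFD over WT HFD went from 0.11 to -0.64, that of HFD over normal diet went from 0.21 to -0.48 in WT and from 0.34 to -1.16 in CKO, and that of CKO over WT under normal diet went from 0.02 to 0.05. All intervals are 95% intervals for counting error alone, and they do not cover differences between mice, preparations or cells.

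The binding sites of the pathway can be read in the reference promoters of the members. RefSeq windows of 250 bases before to 50 bases after the start of the gene (GRCm38.p6) were found for 31 of the 39. The core of the interferon-stimulated response element, read as GAAA, any 2 bases and GAAA on either strand, was in 19 of these 31 genes, of which 12 were among 21 type I, 4 among 6 interferon-gamma and 3 among 4 shared members, and in 3.44% of all 32851 windows. The stretches shown are those of genes whose levels the results turn on, 5′ to 3′ on the strand of the gene, with the core nearest the start in capitals. The stretch of Isg15 holds 3 cores and those of Ifit1, Bst2 and Oas1a hold 2 each, and bases outside the core nearest the start are in lower case. Where the core lies on the other strand it appears as TTTC, 2 bases and TTTC.
Isg15 (chr4:156200850-156200909, minus strand, core 66 bases before the start): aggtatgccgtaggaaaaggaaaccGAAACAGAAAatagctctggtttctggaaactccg
Ifit1 (chr19:34640779-34640838, plus strand, 85 bases before): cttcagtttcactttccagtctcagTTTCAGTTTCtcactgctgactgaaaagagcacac
Rsad2 (chr12:26456538-26456597, minus strand, 120 bases before): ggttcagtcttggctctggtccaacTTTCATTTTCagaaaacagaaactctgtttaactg
Bst2 (chr8:71537562-71537621, minus strand, 124 bases before): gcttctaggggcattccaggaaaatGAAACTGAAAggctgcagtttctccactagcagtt
Stat2 (chr10:128270251-128270310, plus strand, 222 bases before): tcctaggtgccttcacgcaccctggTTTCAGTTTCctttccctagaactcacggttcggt
Oas1a (chr5:120907526-120907564, minus strand, 14 bases before): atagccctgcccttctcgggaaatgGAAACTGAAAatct
Cxcl10 (chr5:92349068-92349127, minus strand, 213 bases before): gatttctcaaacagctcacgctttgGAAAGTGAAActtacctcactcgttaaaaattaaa
Gbp2 (chr3:142620579-142620638, plus strand, 59 bases before): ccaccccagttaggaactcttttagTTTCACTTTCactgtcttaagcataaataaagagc

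The gamma-activated site, TTCNNNGAA, reads the same on both strands and was in 8 of the 31 genes, 3 of them among the 6 interferon-gamma members, against 8.30% of all windows. A pair of interferon-gamma members that hold it are shown with the site in capitals.
Irf1 (chr11:53769899-53769957, plus strand, 90 bases before): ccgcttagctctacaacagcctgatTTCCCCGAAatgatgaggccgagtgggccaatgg
Gbp5 (chr3:142496857-142496915, plus strand, 52 bases before): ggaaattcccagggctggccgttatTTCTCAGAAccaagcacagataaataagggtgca

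AGNGAAAG, a core of BLIMP1 sites, was in 3 of the 31 genes (Stat2, Gbp2 and Gbp3) and in 8.63% of all windows on either strand. In Gbp2 alone it overlapped the response element core shown above. A match of letters is a description and not a site shown to be bound.

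Among effectors of the type I response, Ifi27l2a, which encodes a small interferon-induced membrane protein, differed most between the libraries in molecules counted. It stood at 716.9, 1790.2, 589 and 805.6 CPM, and it made up 47.5%, 64.9%, 33.3% and 40.7% of the UMIs of all 38 members. CKO HFD was above the other libraries. Bst2, which encodes tetherin, a protein that holds budding viruses at the cell surface, stood at 122.3, 208.1, 106.8 and 111.6 CPM, and again CKO HFD was above the rest. Isg15, a ubiquitin-like protein that is attached to other proteins, stood at 22.7, 37.6, 22.9 and 19.9 CPM. The remaining 3 libraries lay close together for Isg15, with intervals from 18.1 to 25 CPM.

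Other effectors followed a different order. Ifi204, a DNA sensor of the IFI200 family, stood at 62.1, 70, 82.3 and 86.7 CPM. Trim30a, a regulator of innate signalling, stood at 64.2, 54.9, 93.3 and 101.9 CPM, and Parp14, an ADP-ribosyltransferase, at 56.9, 48.6, 72.1 and 69.4 CPM. For these 3 genes both normal-diet libraries were above both HFD libraries. Rsad2 (viperin), an enzyme that makes an antiviral nucleotide, stood at 8.36, 10.4, 16.7 and 12.1 CPM, in the same order of diets. The Ifit genes, whose proteins bind foreign RNA, were low: Ifit1 stood at 4.54, 5.76, 4.27 and 5.18 CPM with overlapping intervals in all pairs of libraries but WT HFD and CKO HFD, which touched at 5.05 and 5.06 CPM. Oas1a, which makes the second messenger of the RNA-degrading pathway, had the opposite order of diets, at 20, 12.6, 8.58 and 8.04 CPM. The Ifit, Oas, Gbp and Ifi200 genes are families of close copies, so their values are uncertain where reads could be shared between copies.

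Among sensors of viral RNA, Ddx60, a helicase that assists RNA sensing, stood at 11.9, 14.8, 50.4 and 58.1 CPM, and Ifih1 (MDA5), a sensor of long double-stranded RNA, at 23.6, 20.3, 36.4 and 35 CPM. Both normal-diet libraries were above both HFD libraries for each gene. Ddx58 (RIG-I), at 13.7, 14.5, 17.5 and 19.7 CPM, did not reach the 1.5-fold used below in either diet comparison.

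Of the regulators, Stat2 stood at 19.1, 16.2, 33.2 and 39.2 CPM and Irf9, its partner, at 27.9, 32, 40.6 and 47.4 CPM, of which Stat2 alone reached the 1.5-fold used below in the diet comparisons, and in WT not with TMM factors. Irf7, the factor that amplifies interferon production, stood at 13.1, 17.8, 12.6 and 11.9 CPM, with CKO HFD above the other 3. Usp18, which removes ISG15 and damps the receptor, stood at 3.63, 4.75, 6.61 and 8.28 CPM. Cmpk2, Ifit2, Ifit3, Ifi44 and Oas3 were under 10 CPM in all 4 libraries, as were Ifit1 and Usp18.

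Interferon-gamma members were highest in normal-diet libraries. Cxcl9, a chemokine that attracts T cells, stood at 5.06, 29.7, 44.3 and 16.4 CPM. Gbp2, a guanylate-binding GTPase that attacks the vacuoles of pathogens, stood at 6.77, 22.7, 51.6 and 32.8 CPM. Both were lowest in WT HFD and highest in WT normal diet, with the CKO libraries between. Gbp7 stood at 19, 20.1, 44.4 and 49.1 CPM and Gbp3 at 12.6, 16.8, 26.9 and 27.1 CPM, in both genes with a gap between diets and little between genotypes. Gbp5, which promotes inflammasome assembly, stood at 3.47, 3.95, 10.9 and 7.3 CPM. Iigp1, an immunity-related GTPase, stood at 1.29, 4.02, 14.3 and 10.7 CPM. Irf1, a transcription factor, stood at 107.3, 94.2, 131.1 and 141.8 CPM. All 7 were thus above their HFD counterpart in WT normal diet, and 6 of 7, all but Cxcl9, in CKO normal diet.

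The shared members had the same order of diets. Cxcl10, a chemokine for the receptor CXCR3, stood at 12.8, 29.2, 68.2 and 61.6 CPM. The GTPase Ifi47 stood at 13.5, 17.1, 24 and 25.1 CPM, Irgm1 at 11.6, 12.9, 18.7 and 19.3 CPM and Igtp at 6.11, 8.23, 9.32 and 10.3 CPM. In all 4 the lowest library was WT HFD.

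**Figure D1:**
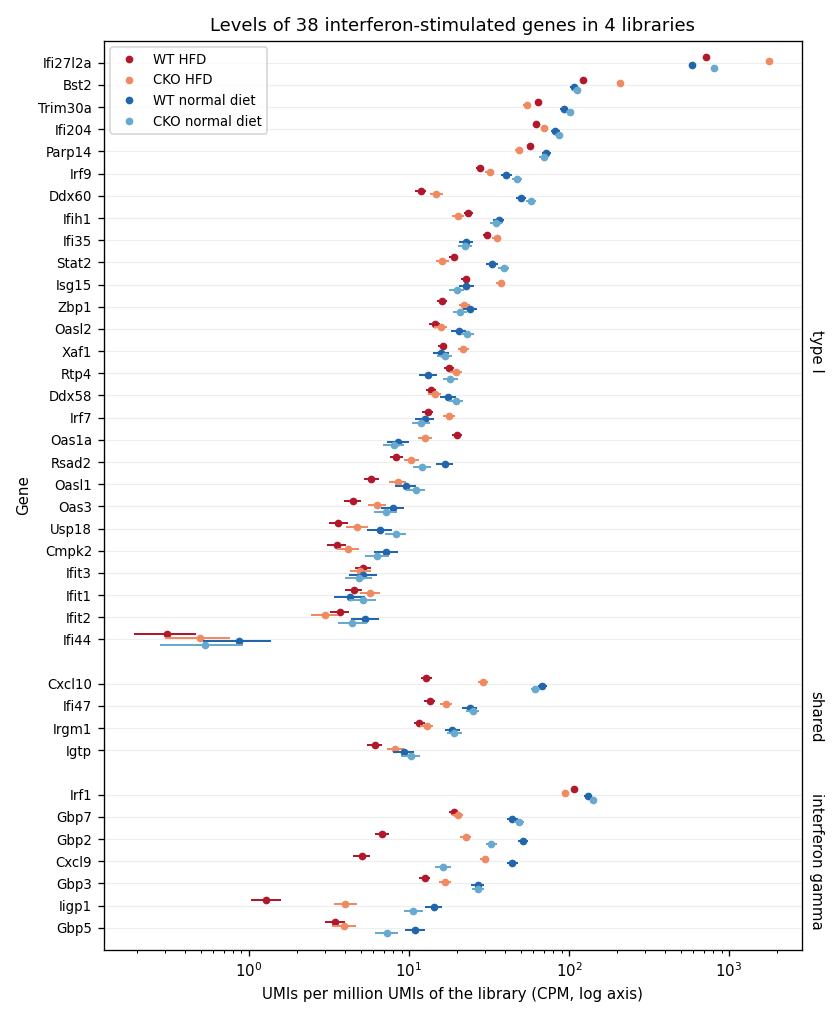
CPM (log axis) for each of the 38 measured members in 4 libraries, grouped as type I, shared and interferon-gamma members. Points are 1 library each and bars are 95% Poisson intervals; Ifi27l2a at 1790.2 CPM in CKO HFD is the point farthest right, and most interferon-gamma members lie farther right in the blue normal-diet libraries than in the red HFD libraries.

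The question of the study is how loss of BLIMP1 changes these macrophages under each diet. For every comparison a gene was counted as higher or lower when its ratio of (CPM + 1) was past 1.5-fold and 1 of the 2 libraries had at least 10 CPM. This is a rule of size and not a test.

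Under HFD, 6 members were higher in CKO than in WT and 1 was lower, of 27 past the filter. Over all 7864 genes past it, 5.12% were higher and 19% were lower, and the median log2 ratio was -0.21. Cxcl9 was 5.87 times (5.23 to 6.6), Gbp2 3.36 times (3.01 to 3.75), Ifi27l2a 2.5 times (2.47 to 2.52), Cxcl10 2.28 times (2.09 to 2.48), Bst2 1.7 times (1.65 to 1.75) and Isg15 1.66 times (1.55 to 1.77) the WT level. Oas1a was 0.628 times (0.568 to 0.694) the WT level. The lowest ratios after Oas1a were those of Stat2 at 0.849, Parp14 at 0.853 and Trim30a at 0.854, short of the 1.5-fold limit. The summed level of all members was 1.83 times (1.81 to 1.84) that of WT, and without Ifi27l2a and Bst2 it was 1.14 times (1.12 to 1.15). Isg15 was short of 1.5-fold when each cell had equal weight, at a log2 ratio of 0.50 in place of 0.70. Scaling with TMM or DESeq2 factors, which centre the median gene, gave 11 higher and 0 lower, with Irf7, Oasl1, Xaf1, Zbp1 and Gbp3 added and Oas1a no longer past the limit.

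Type I and interferon-gamma members had medians on the same side of 0 in this comparison. The median log2 ratio was 0.19 over 19 type I members, with 3 higher and 1 lower, and 0.39 over 5 interferon-gamma members, with 2 higher and 0 lower. Relative to the median of all genes these are 0.40 and 0.60.

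Under normal diet, 0 members were higher in CKO and 2 were lower, of 30 past the filter, against 0.395% higher and 0.481% lower of 8111 genes. The 2 were interferon-gamma members. Cxcl9 was 0.37 times (0.329 to 0.416) and Gbp2 0.637 times (0.581 to 0.697) the WT level. Without the clusters of other cell types Gbp2 was short of the limit, at a log2 ratio of -0.57 in place of -0.64. The next lowest ratio of (CPM + 1) was that of Gbp5, at 0.668 times in CPM, and the highest that of Ifi27l2a, at 1.37 times (1.34 to 1.4), both short of the limit. The median log2 ratio was 0.07 over 19 type I members and -0.39 over 7 interferon-gamma members, beside 0.03 over all genes. With the 4 shared genes added to the interferon-gamma list the median was 0.012, so its sign rests on which genes are counted.

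For Cxcl9 and Gbp2 the CKO over WT ratio was thus above 1 under HFD and below 1 under normal diet. The difference between the diets could not be tested with 1 library a group.

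The diet comparison asks what high-fat feeding changed within a genotype. In WT, 1 member was higher under HFD and 13 were lower, of 29 past the filter, while 12.5% of 8342 genes were higher and 23.6% lower. The 13 were 6 of 7 interferon-gamma, 3 of 3 shared and 4 of 19 type I members. Iigp1 was 0.0903 times (0.0711 to 0.114), Cxcl9 0.114 times (0.101 to 0.129), Gbp2 0.131 times (0.118 to 0.146), Cxcl10 0.188 times (0.173 to 0.204) and Ddx60 0.235 times (0.215 to 0.257) the normal-diet level. The other 8 were Gbp5, Gbp7, Gbp3, Rsad2, Ifi47, Stat2, Irgm1 and Ifih1, with ratios from 0.317 to 0.648. Oas1a, the 1 higher member, was 2.33 times (2 to 2.73) the normal-diet level. The median log2 ratio was -0.34 over type I and -1.42 over interferon-gamma members, beside -0.17 over all genes. Scaled with TMM factors, 3 members were higher and 9 lower.

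In CKO, 6 members were higher under HFD and 8 were lower, of 30 past the filter, while 11.4% of 8235 genes were higher and 41.2% lower. The higher members were Ifi27l2a at 2.22 times (2.19 to 2.26), Isg15 at 1.89 times (1.71 to 2.1), Bst2 at 1.86 times (1.79 to 1.95), Cxcl9 at 1.81 times (1.62 to 2.03), Ifi35 at 1.57 times (1.43 to 1.74) and Oas1a at 1.56 times (1.33 to 1.85) the normal-diet level. The lowest were Ddx60 at 0.255 times (0.232 to 0.281), Iigp1 at 0.376 times (0.308 to 0.458), Gbp7 at 0.41 times (0.376 to 0.448) and Stat2 at 0.414 times (0.375 to 0.457). Cxcl10 was 0.475 times the normal-diet level, and Trim30a, Ifih1 and Gbp3 lay between 0.538 and 0.619 times. The median log2 ratio was -0.25 over 20 type I and -0.62 over 6 interferon-gamma members, beside -0.42 over all genes, and the sign of the type I median turned with TMM scaling, to 0.18. TMM and DESeq2 factors each gave 8 higher and 4 lower. Ddx60 spans 110 kb, and relative to genes of its own length class its log2 ratio was -0.74 in place of -1.90. Read against their length classes, the higher members Bst2 at 0.55, Isg15 at 0.55 and Cxcl9 at 0.48 were short of 1.5-fold, and Oas1a stayed past it in 6 of 13 other settings. The reading against length classes moved the CKO over WT log2 ratio of Ddx60 under HFD from 0.30 to 0.94.

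The 2 diet ratios differ by genotype for Cxcl9, below 1 in WT and above 1 in CKO, and this difference was not tested. Cxcl10, Ddx60, Gbp3, Gbp7, Ifih1, Iigp1 and Stat2 were counted as lower under HFD in both genotypes. These are 7 of the 28 members past the filter in both comparisons, near the 20.7% of 8110 genes that were lower in both. Of their calls, Gbp3 in CKO held in 4, Iigp1 in CKO in 7 and Ifih1 in WT in 5 of 13 other settings, and each of these was lost with TMM factors.

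**Figure D2:**
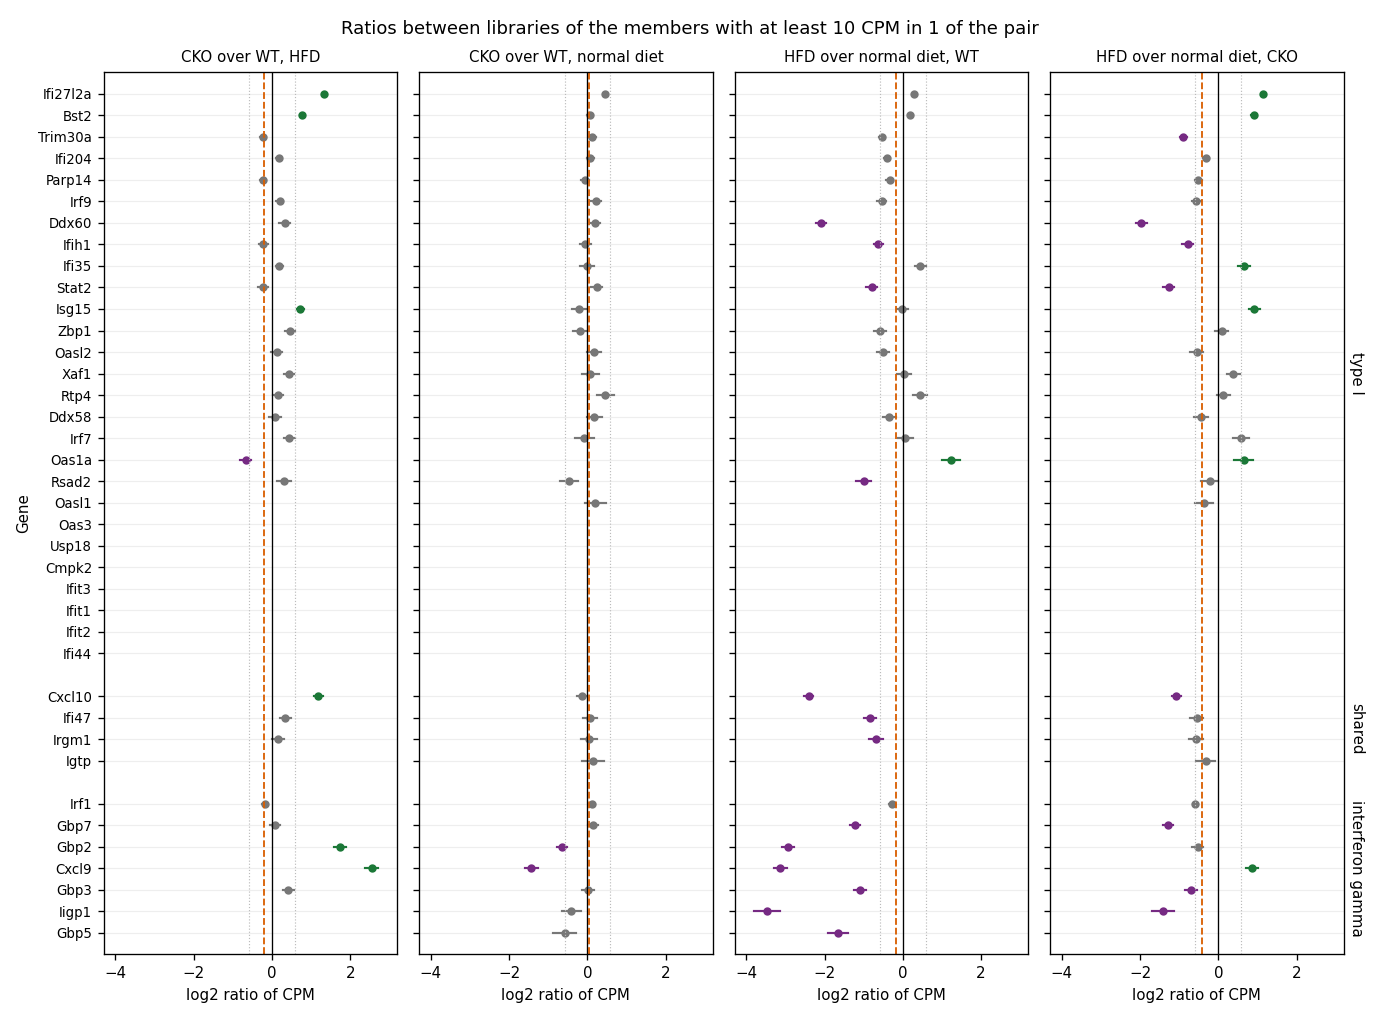
Log2 ratio of CPM between 2 libraries (horizontal axis) for each member with at least 10 CPM in 1 of them, in 4 comparisons. Points carry 95% intervals for counting error; green and purple mark members past 1.5-fold higher and lower, grey lines mark 0 (solid) and 1.5-fold (dotted), and the dashed line marks the median of all genes, at -0.21, 0.03, -0.17 and -0.42 from left to right. Interferon-gamma members lie mostly left of that line in the diet comparison of WT.

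The rest of the pathway was read from lists outside the members. Of 9 interferon genes, none reached 10 CPM in any library. Ifna1, Ifna2, Ifna4, Ifna5 and Ifne had 0 UMIs in each, which allows up to 0.0496 to 0.169 CPM by the library's Poisson limit. Ifng, the gene of interferon gamma, had 82, 8, 1 and 3 UMIs. The 6 receptor genes, 5 of them past the filter, held 0 genes past 1.5-fold in each of the 4 comparisons. The kinase gene Jak2 stood at 37.2, 35.2, 131.7 and 117.6 CPM and was lower under HFD in each genotype. In CKO under HFD the kinase gene Jak1, at 157.1 against 239.1 CPM, and the factor gene Stat3, at 147.5 against 275.2 CPM, were lower than in WT, and Stat3 spans 54.4 kb and Jak1 112.9 kb. Genes of antigen presentation that interferon gamma induces did not share one direction: under HFD in WT 4 of 12 were higher, Psmb8 at 230.7 against 116.8 CPM among them, and 4 of 12 were lower, Tap2 at 27.5 against 69.5 CPM among them. Of 7 inhibitors past the filter, Socs1, at 10.8 against 6.4 CPM, was higher and Ptpn2, at 42.3 against 68.4 CPM, was lower in CKO under HFD. Of 9 further sensors and adaptors past the filter, 0 were higher in any comparison, and 1 was lower in CKO under HFD, 1 for diet in WT and 2 for diet in CKO. Of further induced genes, 3 were higher and 1 lower of 29 in CKO under HFD, with Ifitm3, which blocks entry of viruses, at 2150 against 683.3 CPM. Under normal diet 1 was higher and 1 lower of 32. In the diet comparisons 2 (6.45%) were higher and 11 (35.5%) lower of 31 in WT, and 3 (9.38%) were higher and 12 (37.5%) lower of 32 in CKO. Over all genes 12.5% were higher and 23.6% lower for diet in WT, and 11.4% and 41.2% for diet in CKO. For CKO over WT the shares of all genes were 5.12% higher and 19% lower under HFD, and 0.395% and 0.481% under normal diet.

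Whether the signal lies in few cells or in all was read after thinning every cell to 2000 UMIs, which left 4583, 7655, 3030 and 3482 cells and left out 67, 1076, 675 and 820 shallower ones. Ifi27l2a was a broad signal. It was detected in 57.7%, 84.6%, 51.4% and 64.4% of thinned cells, and Bst2 in 20%, 31.4%, 17.9% and 19.2%. Both were thus found in more cells of CKO HFD than of the other libraries. No cell type is known to lack these genes, so the background of free RNA could not be measured: in fibroblast-like cells thinned to the same depth, Ifi27l2a was in 54% of 50 cells of WT HFD and 78.7% of 61 cells of CKO HFD, close to the shares in all cells, and the part of free RNA was not tested. Without thinning the shares of cells with an Isg15 UMI moved with depth, to 14.3% in WT HFD from 3.23% thinned.

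Cxcl9 was the opposite, a signal of few cells. It was detected in 0.284%, 1.07%, 1.78% and 0.89% of thinned cells and in 0 fibroblast-like cells. Before thinning, its 377, 1265, 965 and 402 UMIs came from 34, 128, 99 and 55 cells, and the 10 cells with the most held 92%, 53.3%, 50.8% and 77.9% of them. Its ratios between libraries therefore rest on few cells, and their counting intervals are too narrow for that. The variance of its UMIs per thinned cell was 11.4, 21.5, 16.6 and 17.5 times the mean, where the median gene had 1.03 to 1.06.

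Between these, Rsad2 had a variance of 7.24, 3.04, 3.95 and 4.46 times the mean, Isg15 3.27, 3.66, 1.58 and 1.63 times, and Cxcl10 4.81, 8.68, 3.43 and 2.73 times. Each was above the median gene in each library. Ifi35 and Oas1a were at 0.98 to 1.08 times and Irf9 at 1.03 to 1.07 times, a ratio that can lie near 1 at so few UMIs per cell however they are spread. In cells with at least 5 other type I members, against the remaining cells, Oas1a was at 4.23 times (2.63 to 6.52) in WT HFD and Ifi35 at 3.26 times (2.55 to 4.12) in CKO HFD. Of all genes, 5.8%, 5.37%, 8.09% and 7.5% had a ratio over 1.5.

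Counting different type I members in a cell, 19.6%, 6.4%, 18.3% and 12.3% of thinned cells had none, and the highest cell had 21, 21, 18 and 22 of 27. With Ifi27l2a and Bst2 left out, 48%, 46.8%, 37.6% and 33.9% of thinned cells had none. Cells with at least 5, called interferon-high, were 3.67% (3.14 to 4.25), 5.29% (4.8 to 5.82), 7.13% (6.24 to 8.1) and 8.18% (7.3 to 9.15). The order was WT HFD, CKO HFD, then both normal-diet libraries, whose intervals overlapped. The count includes Ifi27l2a and Bst2, which were found in more cells of CKO HFD, and the order without them was not tested. Cells with at least 8 numbered 35, 80, 42 and 42, or 0.764% (0.532 to 1.06), 1.05% (0.83 to 1.3), 1.39% (1.001 to 1.87) and 1.21% (0.871 to 1.63), with intervals that overlapped for each pair of libraries. No order of the libraries could be read from these strongest cells at this depth.

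The cells with at least 8 members held 6.46%, 5.77%, 9.03% and 7.42% of the type I UMIs. Without Ifi27l2a and Bst2 they held 13.8%, 15.1%, 13.6% and 11.8%. Of the shared members they held 19.3%, 23%, 13.4% and 10.3%, and of the interferon-gamma members 6.3%, 3.13%, 4.57% and 4.06%. The top 5% of cells by member UMIs held 22.6%, 20.5%, 23.8% and 19.9% of all member UMIs.

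**Figure D3:**
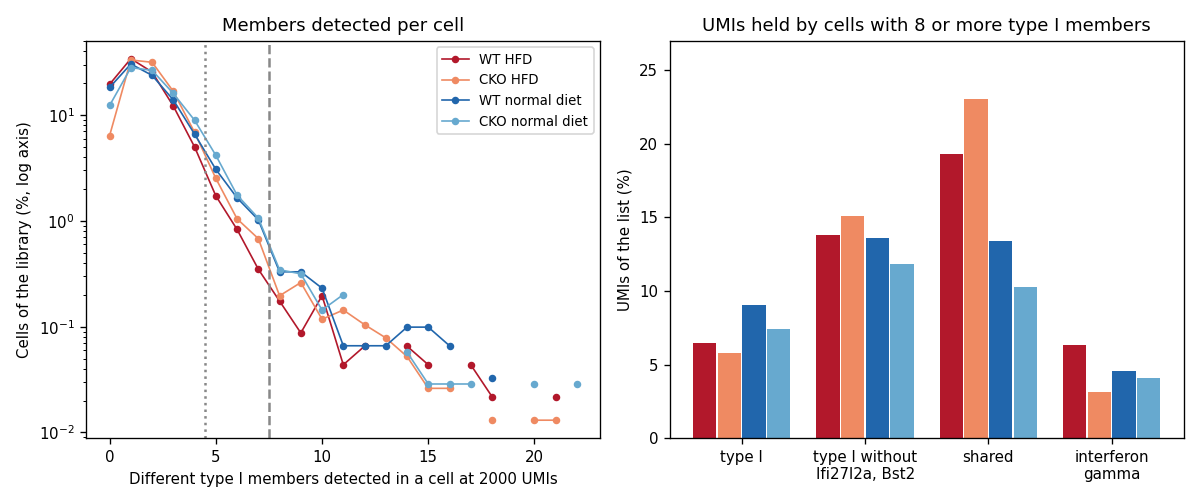
Left, share of thinned cells of each library (percent, log axis) by the number of different type I members detected, with lines at the limits of 5 (dotted) and 8 (dashed) members; the 4 curves run down together and end at 18 to 22 members. Right, percent of the UMIs of each list held by cells with 8 or more type I members, where the shared members reach 23% in CKO HFD and the interferon-gamma members 3.13% to 6.3%.

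The differences between libraries were next read without the interferon-high cells, in thinned cells. Under HFD the same 6 members, Ifi27l2a, Bst2, Isg15, Cxcl10, Gbp2 and Cxcl9, were higher in CKO. The log2 ratio of Ifi27l2a was 1.29 without these cells and 1.26 with them, and that of Bst2 was 0.75 and 0.81. Under normal diet the log2 ratio of Cxcl9 was -0.76 without these cells and -1.53 with them. In the diet comparison of CKO it was 0.41 without them and 0.83 with them, so that Cxcl9 was no longer past 1.5-fold. In the diet comparison of WT, 7 members were lower without them and 14 with them, and Stat2, Ddx60, Gbp2, Gbp7, Iigp1, Cxcl9 and Cxcl10 were the 7. The cells left out were chosen by their type I members and were 3.67% of WT HFD and 7.13% of WT normal diet. Leaving them out lowers type I levels by construction, so the fall from 14 to 7 does not show where the difference lies.

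Type I members defined the interferon-high cells, so their own enrichment there is no finding. It is given with each gene left out of the count that chose its cells, and it differed widely between members. In cells with at least 5 other members Ifit3 was 217, 93.8, 26.7 and 24.2 times its level in the remaining cells, Rsad2 74.2, 39.5, 23.8 and 19.3 times, and Isg15 34.5, 20.9, 12.6 and 8.66 times. Ifit3 stood at 5.17, 4.98, 5.19 and 4.85 CPM in the whole libraries. Its large ratios thus rest on few UMIs in the remaining cells, and their order over the libraries was not tested. Ifi27l2a was 2.83, 2.21, 2.35 and 1.91 times, and Irf9 2.11, 2.11, 1.68 and 1.67 times. The enrichment of Ifi27l2a and Irf9 was thus small beside that of Ifit3 and Rsad2 in each library.

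Interferon-gamma members took no part in the choice of these cells. Summed, they were 2.73 times (2.29 to 3.25) in WT HFD, and 2.96, 2.99 and 1.71 times in the other libraries, the level of the remaining cells. Shared members were 8.66, 9.68, 4.21 and 3.29 times that level, more than the interferon-gamma members in each library. Within the interferon-gamma group Iigp1 was 21, 37.3, 5.85 and 10.5 times and Gbp2 11.2, 5.05, 4.47 and 2.37 times, while Irf1 was 1.13, 1.22, 1.3 and 1.23 times. Cxcl9 was 26.3, 7.25, 10.8 and 0.734 times. Before thinning, Cxcl9 UMIs came from 34, 128, 99 and 55 cells and those of Iigp1 from 32, 86, 134 and 143 cells. The ratios of both genes rest on few cells, and whether Cxcl9 was enriched in CKO normal diet is not settled. In the stricter cells with at least 8 members, Irf1 in CKO HFD was at 0.865 times, from 14 UMIs, and Cxcl9 there came from 2 UMIs.

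**Figure D4:**
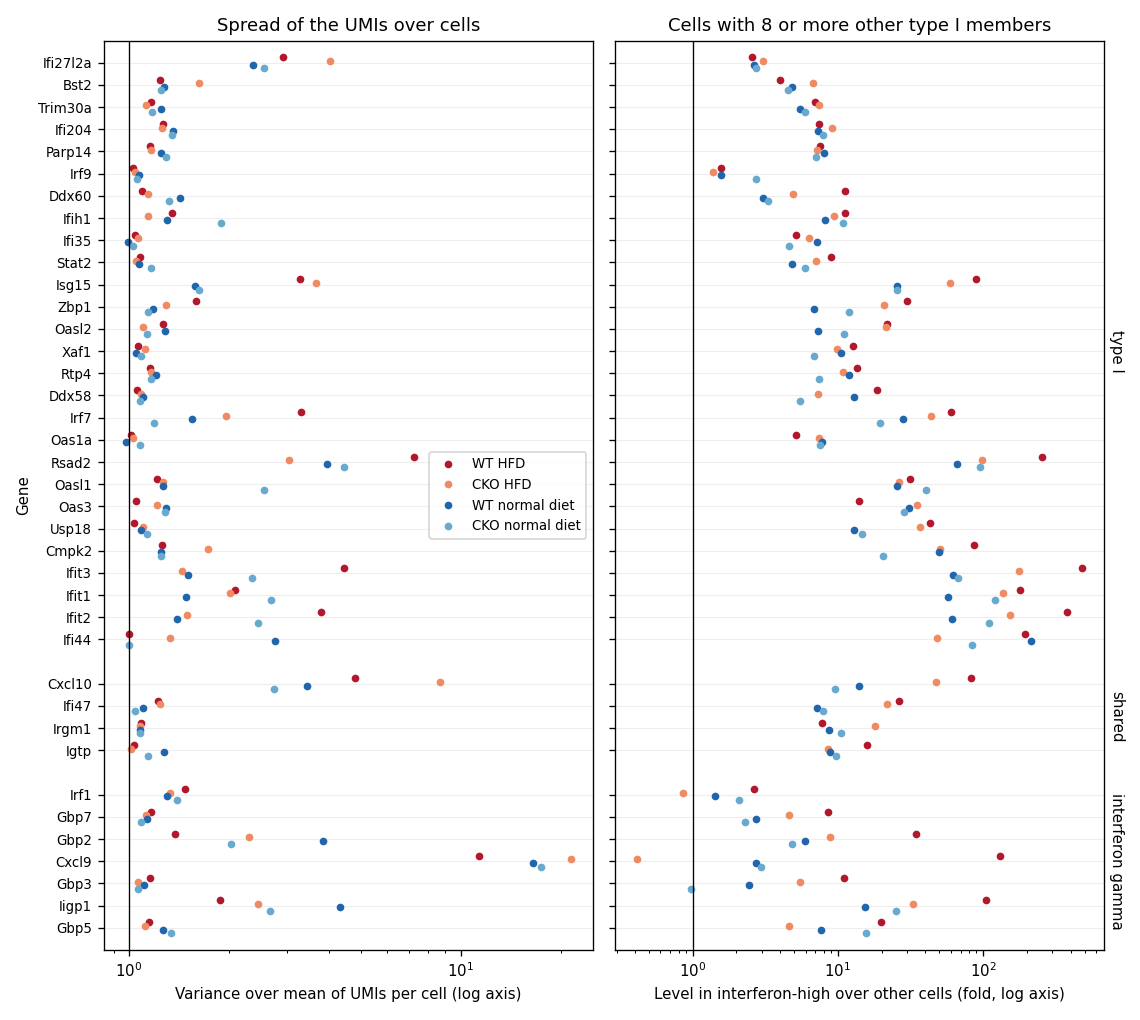
Left, variance over mean of the UMIs per cell at 2000 UMIs (log axis) for each member in 4 libraries, where the line at 1 is the Poisson value and Cxcl9 reaches 21.5 in CKO HFD. Right, level in cells with at least 8 other type I members over that in the remaining cells (fold, log axis), where Ifit and Rsad2 points lie farthest right and the points of Irf1 and Irf9 lie between 0.865 and 2.75.

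The members were last set against cell clusters, which were built without interferon genes and hold at least 100 cells of a library each. Of the 19 clusters, those named from markers were lipid-associated, dividing, resident and cavity macrophage-like, non-classical monocyte-like, type 2 dendritic-like and fibroblast-like cells, and the rest are called by their leading genes. For the 25 type I members without Ifi27l2a and Bst2, the cluster led by Thbs1, Plac8 and Sirpb1c had the highest level in WT normal diet, at 1323 CPM, and in CKO normal diet, at 1282 CPM. In that cluster 18.4% of cells were interferon-high in each normal-diet library and 7.31% in WT HFD. Lipid-associated macrophage-like cells were at 327 CPM in WT HFD and 283 CPM in CKO HFD, and 1.57% and 2.34% of them were interferon-high. Resident macrophage-like cells were at 735 CPM and 746 CPM in the same libraries, with 5.58% and 9.42% interferon-high. Within each of these clusters the HFD libraries differed less than the clusters differed from each other. This did not hold in the cluster led by AA467197, at 1420 CPM in WT HFD, from 106 cells, and 493 CPM in CKO HFD. Dividing-like cells were at 344 and 491 CPM and the cluster led by Cmss1 at 523 and 409 CPM. Non-classical monocyte-like cells were at 860 CPM in WT normal diet and 1071 CPM in CKO normal diet.

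Within clusters, Ifi27l2a was higher in CKO than in WT in each of 5 clusters under HFD, by 1.49 to 2.82 times, and in each of 8 under normal diet, by 1.14 to 2.88 times. The ratio of Oas1a was 0.365 to 0.76 times in the 5 clusters under HFD, but its interval included 1 in 2 of them (0.222 to 1.33 and 0.555 to 1.03). The other members were not as even. Over the same 5 clusters the ratios ran from 0.903 to 1.93 for Bst2, from 0.33 to 3.29 for Cxcl10, from 0.844 to 5.41 for Gbp2 and from 0.553 to 1.21 for the interferon-gamma sum. Cxcl9 ran from 0.358 times in the cluster led by AA467197 to 59 times (24.7 to 184) in dividing-like cells, apart from a cluster with 0 UMIs in CKO HFD. The 59 times was 25.3 CPM in CKO HFD over only 0.43 CPM in WT HFD. Cxcl9 UMIs come from few cells, so its counting intervals within clusters are too narrow. In lipid-associated, dividing and resident-like cells Isg15 was 1.2, 3.29 and 1.35 times the WT HFD level, but in the cluster led by AA467197, Chil3 and Saa3 it was 0.315 times, where WT HFD had 106 cells against 2326. In the cluster led by Cmss1 and Ciita, with 101 cells of CKO HFD against 1701, it was 0.527 times (0.193 to 1.15), an interval that includes 1, as did that of the lipid-associated cells (0.955 to 1.49). These 2 clusters were mostly of 1 library, and so was the cluster led by Ccl12 with 34.3% of CKO HFD cells, in which WT HFD had under 100.

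In the diet comparison of WT the 7 interferon-gamma members summed to 0.216 to 0.574 times the normal-diet level in each of 4 clusters, and Gbp2 to 0.0312 to 0.229 times. In the cluster led by Thbs1 and Plac8 their sum was 610 CPM in WT normal diet, 288 CPM in CKO normal diet and 132 CPM in WT HFD. Cxcl9 made up 259, 20.6 and 16.8 CPM of these. Under normal diet the Cxcl9 ratio of CKO over WT was 0.0148 to 0.679 times with intervals below 1 in 6 of 8 clusters. All Cxcl9 UMIs came from 99 cells of WT and 55 cells of CKO normal diet, so these intervals are too narrow. The 0.0148 times was 2.69 against 183 CPM in the shallow cluster led by Igkc and Jchain. In dividing-like cells the ratio was 0.595 times (0.323 to 1.09), and non-classical monocyte-like cells had too few UMIs for a ratio.

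**Figure D5:**
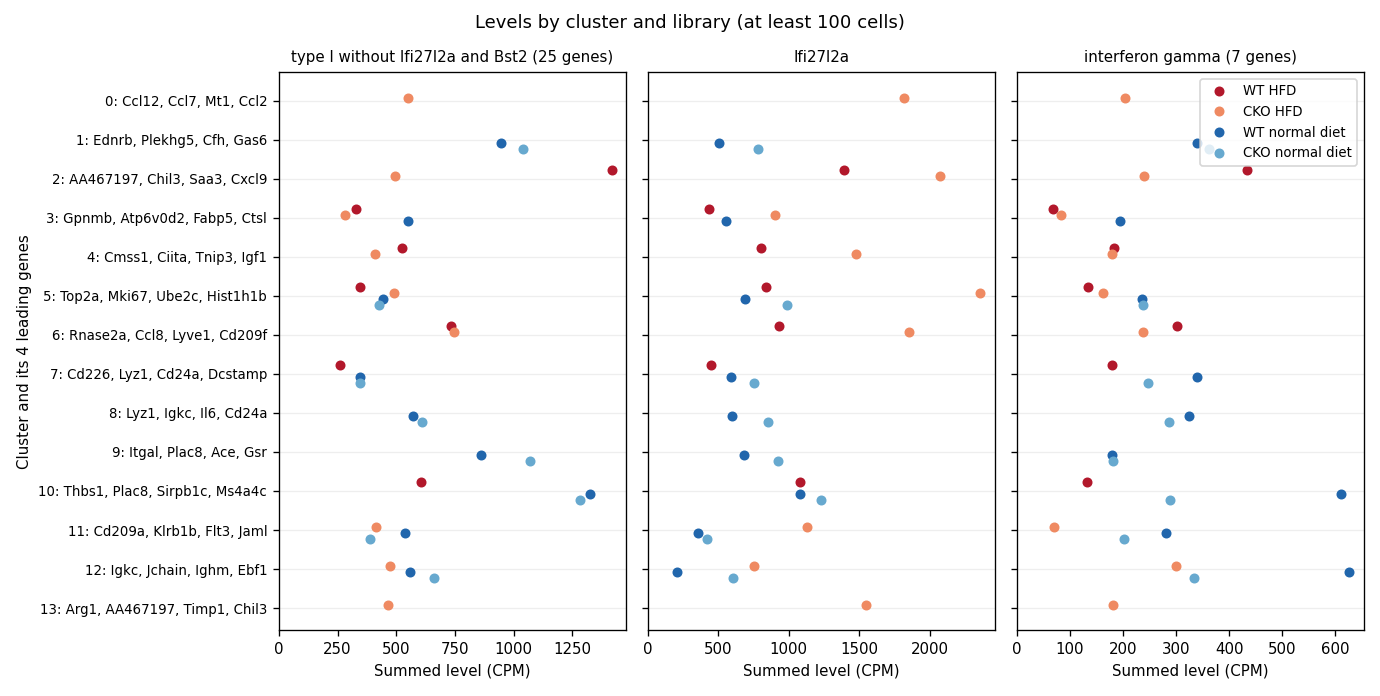
Summed CPM of the type I members without Ifi27l2a and Bst2 (left), of Ifi27l2a (middle) and of the 7 interferon-gamma members (right) by cluster and library, each point being a cluster with at least 100 cells of that library. Ifi27l2a of CKO HFD lies right of the other libraries in every cluster that another library shares with it, and the type I sum spans 283 to 746 CPM from lipid-associated-like (cluster 3) to resident-like cells (cluster 6) in CKO HFD.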

How the data were processed

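The authors deposited UMI counts of genes in single cells, not normalized, written by Cell Ranger 7.0.0 per the file headers. The build is GRCm38 per the submitters' processing notes. The sources used here do not state the annotation or whether intron reads were counted. Gene positions and lengths came from GENCODE M21, in which 32158 identifiers (99.6%) were found.

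A cell was kept with 500 UMIs or more, 300 genes or more and no more than 10% of mitochondrial UMIs. Doublets were not removed: Scrublet (scanpy 1.11.5) called 0 cells in each library and so did not work, and leaving out top scores was tried instead. UMIs were summed per library and scaled to CPM, with exact Poisson intervals for levels, exact conditional binomial intervals for ratios and Clopper-Pearson intervals for shares, all at 95%. Log2 ratios used a pseudocount of 1 CPM. UMIs within a cell are counted molecules, but intervals cover counting error alone. For shares, cells were thinned at random to 2000 UMIs. Clusters came from 2000 variable genes without 139 interferon genes, 30 components, 15 neighbours and Leiden resolution 1 (leidenalg 0.10.2), with no integration. A cluster took a name with at least 3 markers of 1 class, and fewer of every other class, among its 20 leading genes. Markers counted at a log2 ratio over the other cells of 1 or more. A shallow cluster with none of these markers among its 10 leading genes stayed unnamed. TMM (edgeR 4.0.16) and median-ratio factors (DESeq2 1.42.0) were alternatives for scaling the deposited counts. The steps were tested on simulated data. Named genes were the interferon-gamma and shared members, the 8 type I members with the highest mean CPM, Irf7, Irf9, Stat2 and Usp18, and the 3 highest and 3 lowest ratios of each comparison, and other members were named after their values were seen. The members, lists and groupings were chosen with earlier results of these data known. The result of 1 list of pathway genes is not reported here.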

Additional observations from a re-analysis of the deposited data

Results flagged for a closer look

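The ratio of CKO over WT for Cxcl9 was above 1 under HFD and below 1 under normal diet, and the first ratio was 15.9 times the second. For Gbp2 the same 2 ratios also lay on opposite sides of 1, the first being 5.27 times the second. Read the other way, the HFD over normal diet ratio of Cxcl9 in WT was 0.0631 times that in CKO. Neither difference was tested, as each group is 1 library. For Cxcl9 the 10 cells with the most UMIs held 50.8% to 92% of its UMIs in a library.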

How the results depend on the processing

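No paired analysis was possible because each group is 1 library, and no library could be left out. Over 13 other settings every member counted as higher or lower kept its direction. A change of the CPM filter or a pseudocount of 10 CPM could not turn a direction, and dropping the filter could not lose a call. Ifi27l2a and Bst2 (CKO over WT under HFD), Ifi27l2a (diet, CKO), Gbp2 (diet, WT), Cxcl10 and Ddx60 (both diet comparisons) stayed past 1.5-fold in all 13 settings. Members counted under HFD for CKO over WT were 11 higher with TMM or DESeq2 factors and 2 with at least 50 CPM, and 0 lower with either set of factors, a pseudocount of 10 CPM, at least 50 CPM or relative to gene length. Under normal diet 1 was lower with a pseudocount of 10 CPM, at least 50 CPM, cells weighted equally or clusters of other cells left out, and 1, Rtp4, was higher without interferon-high cells. In the diet comparison of WT, 3 were higher with TMM, 2 with DESeq2 factors, equal weights, relative to gene length or without interferon-high cells, and 0 with at least 50 CPM, while 8 were lower with a pseudocount of 10 CPM, 3 with at least 50 CPM and 7 without interferon-high cells. In that of CKO, 4 were lower with either set of factors, 5 with a pseudocount of 10 CPM, 3 with at least 50 CPM, 14 thinned and 15 with equal weights, and 2 were higher with at least 50 CPM. The cause of these moves was not tested beyond the construction of each setting.

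TMM factors moved the median log2 ratio of all genes to 0.017, 0.010, 0.040 and 0.047 in the order CKO over WT under HFD and normal diet, then diet in WT and CKO. The type I median log2 ratio of CKO over WT under HFD was 0.41 with TMM and 0.36 relative to gene length, a setting chosen after seeing the data, and that of HFD over normal diet was -0.14 and -0.22 in WT and 0.18 and 0.16 in CKO, where its sign turned. The interferon-gamma median was 0.61 with TMM for CKO over WT under HFD, -1.77 and -0.14 for diet in WT and CKO, and 0.012 under normal diet with the shared members added. With TMM factors Gbp5 in the diet comparison of WT and Iigp1 in that of CKO fell under 10 CPM. Those medians thus cover fewer members, and the -1.77 does not mean that each drop deepened. Interferon-high cells were 1.09%, 1.81%, 1.94% and 1.88% at 1000 UMIs, 7.96%, 9.87%, 13.3% and 14.6% at 3000 UMIs, 20.8%, 28.9%, 27.6% and 33.1% with at least 3 members, 0.764%, 1.05%, 1.39% and 1.21% with at least 8, and 6.17%, 9.13%, 13.7% and 15.4% with all measured members counted. WT HFD was the lowest in each of these settings, all of which counted Ifi27l2a and Bst2. The top 5% of cells held 24.7%, 21.8%, 25.5% and 21.4% of member UMIs at 1000 UMIs, and 29.4%, 32.5%, 29.3% and 24.4% without Ifi27l2a and Bst2. Interferon-gamma members were 1.58, 1.82, 1.87 and 1.42 times as high in cells with at least 3 type I members. The type I level of the highest cluster over that of the lowest was 5.47, 2.63, 3.83 and 3.73 times at Leiden resolution 1, against 2.68 times in WT HFD at resolution 2, 2.91 and 3.53 times in CKO HFD at resolutions 0.5 and 2, and 2.49 times in WT normal diet at 0.5. Depth limits the strongest cells, of which a library held 35 to 80.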

Other observations

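Genes outside the interferon lists also went with the interferon-high cells. In cells with at least 5 type I members, Plac8, a gene of monocytes, was at 235, 670, 1255 and 942 CPM, in the order of libraries used above, against 25, 71.4, 271 and 202 CPM in the remaining cells. Fcgr1, which encodes CD64, was at 223, 174, 111 and 93 CPM against 84.4, 62.3, 37.5 and 33.9 CPM. The chemokine gene Ccl12 was at 307, 1010, 296 and 349 CPM against 102, 337, 132 and 111 CPM. Fabp5, a lipid-binding protein of lipid-associated macrophages, went the other way, at 116, 115, 32.4 and 33.3 CPM against 364, 300, 72.9 and 68.7 CPM. The 8 classical monocyte markers summed to 1.52, 1.69, 1.66 and 1.45 times, and the 11 lipid-associated markers to 0.48, 0.592, 0.864 and 0.858 times, the level of the remaining cells. The 10 resident macrophage markers also summed to more there, at 1.22, 1.19, 1.31 and 1.36 times, and the 8 markers of dividing cells to less, at 0.647, 0.78, 0.41 and 0.512 times. F13a1 is in both the classical monocyte and the resident macrophage list, so these sums are not separate. Plac8, given above, is among the 8 classical monocyte markers, and their sum without it was not tested. Of the 8 classical monocyte markers, 4, 7, 6 and 3 reached 10 CPM in the whole libraries.

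In the stricter cells with at least 8 members, Ly6c2, a marker of classical monocytes, was at 114, 444, 202 and 226 CPM against 5.94, 20.1, 13.4 and 5.23 CPM. Rnf213, a large ubiquitin ligase, was at 671, 388, 786 and 655 CPM against 48.2, 40.9, 87 and 81 CPM. The resident macrophage markers, higher with at least 5 members, summed here to 0.963, 0.857, 0.697 and 0.87 times the level of the remaining cells. In WT HFD the interval of that ratio included 1 (0.863 to 1.07). The classical monocyte markers summed to 1.4, 2.24, 1.88 and 2.1 times, at 2286, 3462.5, 4381 and 5250 CPM against 1637, 1546, 2334 and 2499 CPM. Ly6c2 and Plac8 are both among these markers. Plac8 alone was at 271, 1431, 2286 and 2702 CPM against 30.9, 89, 314 and 233 CPM. The sum without this pair of genes was not tested. Of the cells with at least 8 members, 48.6% of those in WT HFD lay in the cluster led by Cmss1 and Ciita, and 37.5% and 30% of those in CKO HFD lay in the clusters led by AA467197 and by Ccl12. In WT normal diet 26.2% lay in the cluster led by Thbs1 and 23.8% in non-classical monocyte-like cells, and in CKO normal diet 28.6% lay in the cluster led by Ednrb. No single cluster thus held most of these cells in any library.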
